A study of Homo sapiens with 24 samples.

Results

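The effect of added IGF1 on gene expression was measured in hypoxic WM35 cells. WM35 is a line established from an early, radial growth phase human melanoma. IGF1 is a secreted growth factor. The comparison rests on 6 of the 24 arrays of the series, chosen by their titles: 3 arrays of WM35 cells kept for 24 h at 1% oxygen and given 100 ng/mL recombinant human IGF1 for the last 6 h, and 3 arrays of WM35 cells kept for 24 h at 1% oxygen without added IGF1. The same line was also profiled at 21% oxygen, again with 3 arrays with IGF1 and 3 without, and these 6 arrays serve here for side by side values and for the shared estimate of spread. The other 12 arrays are of Mel-624 cells and are not analysed here. The series was made to derive expression signatures of IGF1 in melanoma lines. Cells were maintained in RPMI medium with fetal bovine serum, and the labels do not say whether serum was present during the IGF1 treatment. WM35 is 1 line, and no label says that the A, B and C samples of a group came from separate cultures, so that p-values measure the spread between these samples, which may be technical.

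IGF1 binds its receptor tyrosine kinase IGF1R, which works through IRS adaptor proteins, PI3 kinase and AKT, and through RAS and ERK. AKT keeps FOXO transcription factors out of the nucleus and, through mTORC1, favours synthesis of proteins, lipids and nucleotides, partly by way of the transcription factors ATF4, SREBP and MYC. Low oxygen works in part the other way: it stabilises HIF proteins, which drive genes of glycolysis and angiogenesis, and it restrains protein synthesis and proliferation.

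The quantity measured was the average bead signal of each probe on Illumina expression arrays, normalized over the 12 WM35 arrays and taken to log2, called the level below. A gene was represented by its brightest detected probe, and 9569 genes were tested. Effects are differences of mean log2 level, IGF1 minus control at 1% oxygen, with the standard error after the ± sign and 3 arrays per group. A gene was called when its adjusted p in limma was below 0.05, and "rose" and "fell" are used of called genes only. Mean raw signal per array was 249 to 263 on IGF1 arrays and 251 to 264 on control arrays, and 14961 to 15497 probes were detected on IGF1 arrays against 14771 to 15275 on control arrays, of 47231. The number of arrays limits the precision. Arrays of 1 group lie side by side on the chip, so chip position and group cannot be told apart. Hypoxia control A, hypoxia IGF1 C and normoxia control C stood apart along the main axis of spread within groups, which held 31.3% of that spread.

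The line showed few melanocytic transcripts. Of 8 melanocytic markers with a probe, SOX10, a neural crest and melanocyte regulator, was detected on all 6 arrays and MITF, the melanocyte master regulator, on 2 IGF1 arrays and 1 control array. MLANA, PAX3, PMEL, S100B, TYR and TYRP1 were not detected on any of the 6. The summed level of the 8 markers was 2162 to 2451 signal units on IGF1 arrays and 2732 to 2768 on control arrays, nearly all of it SOX10, whose effect was -0.27 ± 0.08 and did not pass the test. Markers of fibroblasts, keratinocytes, immune cells and endothelium had 2 or 3 members detected in each list, and 0 of them were called.

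IGF1 moved genes both ways in similar number. Of 9569 genes, 867 were called (9.06%), of which 431 rose (4.5%) and 436 fell (4.56%). Counts within the gene groups below stand against these shares. The groups and their members were chosen with earlier results of these data known. Counts of calls and of promoter letters within a group may partly restate that choice. Changes were small: the median size among called genes was 0.50 on the log2 scale, 257 genes (2.69%) changed at least 1.5-fold and 17 had a fitted change of at least 2-fold, 5 up and 12 down. The 3 IGF1 arrays lay wholly above or below the 3 control arrays for 865 of the 867, against 29.1% of all genes tested. The calls rest on the same arrays, which favours such separation. The median effect over all genes was 0.00. The number called depended on single arrays: it was 361 without IGF1 array B, 409 without IGF1 array C, 426 without control array B, 513 without control array C and 537 without IGF1 array A, and 333 without the 3 arrays that stood apart. All 867 had the same sign in each of these fits. For the 865 whose groups did not overlap this was fixed in advance, because leaving out arrays cannot turn their sign. A set of 175 (87 up, 88 down) passed the threshold in every alternative fit.

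**Figure D1:**
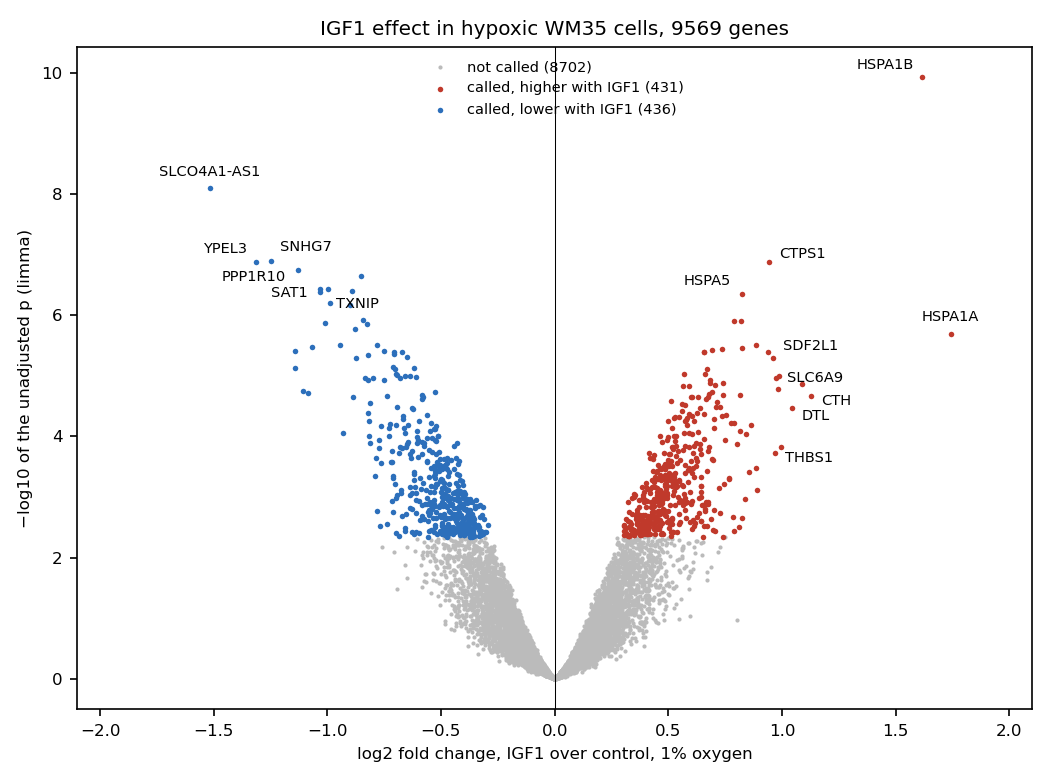
Each point is 1 of 9569 genes, with the log2 fold change of IGF1 over control at 1% oxygen on the horizontal axis and minus log10 of the unadjusted limma p on the vertical axis. The 431 genes called higher and 436 called lower form wings of similar size, with HSPA1B and HSPA1A furthest to the right and SLCO4A1-AS1, an antisense transcript, furthest to the left.

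Heat shock genes, many of which encode chaperones that fold and refold other proteins, held the 2 largest rises, those of HSPA1A and HSPA1B. Of 27 heat shock genes tested, 10 rose by 0.30 to 1.74, 1 fell and the median was 0.32. HSPA1B and HSPA1A are near-identical copies that encode the stress-inducible HSP70 and share sequence, so their probes may not tell them apart. The level of HSPA1B was 11.59, 11.64 and 11.74 on the IGF1 arrays, against 10.14, 10.01 and 9.98 on the control arrays. It rose by 1.62 ± 0.09 on the log2 scale (3.06-fold, adjusted p = 1.14e-06), with the IGF1 arrays all above the control arrays. The level of HSPA1A was 8.01, 7.61 and 8.09 on the IGF1 arrays, against 5.60, 6.55 and 6.34 on the control arrays, and it rose by 1.74 ± 0.21 on the log2 scale (3.34-fold, adjusted p = 0.000917). Control array A was the lowest of the 6 for HSPA1A. HSPH1, a nucleotide exchange factor of HSP70, rose by 0.79 ± 0.09 on the log2 scale (1.73-fold, adjusted p = 0.000707). DNAJA1, a co-chaperone of HSP70, rose by 0.64 ± 0.10 on the log2 scale (1.56-fold, adjusted p = 0.00337). HSPA8, the constitutive HSP70, had levels of 13.39, 13.26 and 13.31 on the IGF1 arrays, against 12.78, 12.82 and 12.86 on the control arrays, and rose by 0.50 ± 0.10 on the log2 scale (1.42-fold, adjusted p = 0.0116). HSP90AA1, the inducible HSP90, rose by 0.48 ± 0.11. HSPA4L was detected on all IGF1 arrays and no control array and was at least 1.35-fold higher (adjusted p = 0.00488). Such bounds set the IGF1 mean against the higher of the dim probe's own signal and the lowest detected signal on each array. The member that fell was DNAJB6, at -0.36 ± 0.09, but its second probe stood at 0.49 ± 0.20. Without the 3 arrays that stood apart, 4 heat shock genes rose.

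Several chaperones of the endoplasmic reticulum (ER), where secreted and membrane proteins fold, rose as well. Of 23 tested, 7 rose by 0.40 to 0.96 and 0 fell, with 20 above zero and a median of 0.19. HSPA5, the HSP70 of the ER, had levels of 9.98, 9.79 and 9.90 on the IGF1 arrays, against 9.04, 9.03 and 9.13 on the control arrays. It rose by 0.82 ± 0.09 on the log2 scale (1.77-fold, adjusted p = 0.000351), and the groups did not overlap. SDF2L1, which works in an ER chaperone complex with HSPA5, rose by 0.96 ± 0.13 on the log2 scale (1.95-fold, adjusted p = 0.00123). FKBP14, a peptidyl-prolyl isomerase that acts on collagens, rose by 0.89 ± 0.11 on the log2 scale (1.85-fold, adjusted p = 0.00112). HYOU1, CRELD2, DNAJB11 and MANF rose by 0.40 to 0.52. Of the 23 ER genes, 4 rose without the 3 arrays that stood apart. FICD, the ER enzyme that attaches AMP to HSPA5 and removes it, is outside the list and was detected on 3 IGF1 arrays and 2 control arrays. Its levels were 6.70, 6.70 and 6.11 on the IGF1 arrays, against 5.70, 5.19 and 5.37 on the control arrays, and it rose by 1.09 ± 0.16 on the log2 scale (2.12-fold, adjusted p = 0.00204), a value that includes 1 control array without detection. Of 24 genes for ER-associated degradation and protein entry into the ER, 1 rose, SRPRB, and 1 fell, OS9 (8.33% called, against 9.06% of all genes).

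Promoters of HSPA8 and HSPA5 are shown because each holds the letters of an element known from its gene class, the heat shock element bound by HSF1 and the ER stress element bound by ATF6. They are taken from RefSeq (GRCh38.p14), run 5′ to 3′ from 250 bases before the annotated start to 50 after it, and lie at chr11:123062087-123062386, minus strand for HSPA8, and chr9:125241294-125241593, minus strand for HSPA5. Capitals mark, in HSPA8, 1 match on each strand to GAA, TTC and GAA with 2 bases of any kind between the neighbours, and in HSPA5 a match to CCAAT and CCACG with 9 bases of any kind between them.
HSPA8: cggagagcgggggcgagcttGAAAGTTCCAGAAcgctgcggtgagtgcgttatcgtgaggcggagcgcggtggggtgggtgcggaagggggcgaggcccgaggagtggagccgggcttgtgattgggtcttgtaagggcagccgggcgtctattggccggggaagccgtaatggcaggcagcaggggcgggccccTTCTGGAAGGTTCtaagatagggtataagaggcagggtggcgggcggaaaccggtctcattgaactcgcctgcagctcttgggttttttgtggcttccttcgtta
HSPA5: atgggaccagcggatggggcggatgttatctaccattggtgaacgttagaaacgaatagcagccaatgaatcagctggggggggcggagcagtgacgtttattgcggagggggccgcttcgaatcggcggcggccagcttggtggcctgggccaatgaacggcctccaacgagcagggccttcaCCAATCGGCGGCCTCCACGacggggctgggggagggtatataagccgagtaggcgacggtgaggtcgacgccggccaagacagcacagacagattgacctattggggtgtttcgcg
The heat shock letters occurred on either strand in 6 of 24 promoters of the heat shock list and in 0.307% of the 7813 tested genes with a promoter sequence, and the ER stress letters in 5 of 22 promoters of the ER list and in 0.154% of tested genes. Among all called genes the heat shock letters stood in 0.86% of the promoters of those that rose and in 0.847% of those that fell, DNAJB6 among these, and the ER stress letters in 1.15% of those that rose and 0.0% of those that fell. A match describes letters only.

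Part of the genes that supply and charge amino acids rose. Many of them are known targets of ATF4, a transcription factor of the amino acid and ER stress response. Among 15 ATF4-linked regulators, 5 rose and 0 fell, with a median of 0.29. ATF3, a stress-inducible partner of ATF4, had levels of 7.11, 7.36 and 7.37 on the IGF1 arrays, against 6.61, 6.60 and 6.40 on the control arrays, and rose by 0.74 ± 0.11 on the log2 scale (1.67-fold, adjusted p = 0.00204). CEBPG, which pairs with ATF4, rose by 0.56 ± 0.08 on the log2 scale (1.48-fold, adjusted p = 0.00213). XBP1, whose spliced product drives ER chaperone genes, rose by 0.64 ± 0.14 on the log2 scale (1.56-fold, adjusted p = 0.0176). CEBPB and STC2 rose by 0.52 and 0.48. Of the 15 regulators, 3 rose without the 3 arrays that stood apart. ATF4 itself was at 0.31 ± 0.09, with adjusted p = 0.0536.

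Several enzymes that make amino acids rose too. Of 12 serine, glycine and one-carbon enzymes, 3 rose and 0 fell, with a median of 0.29. PSPH, which completes serine synthesis, had levels of 8.33, 8.48 and 8.74 on the IGF1 arrays, against 7.76, 7.84 and 7.49 on the control arrays, and rose by 0.82 ± 0.13 on the log2 scale (1.76-fold, adjusted p = 0.00263). PSAT1, one step before it, rose by 0.68 ± 0.10 on the log2 scale (1.61-fold, adjusted p = 0.00191). MTHFD2, which uses serine-derived one-carbon units in mitochondria, rose by 0.51 ± 0.14. Of 15 other synthesis enzymes, 6 rose, CTH and 5 others by 0.37 to 0.66, and 0 fell, with a median of 0.30. CTH, which makes cysteine from cystathionine, had levels of 5.78, 6.23 and 6.53 on the IGF1 arrays, against 5.09, 4.91 and 5.15 on the control arrays. It was detected on all IGF1 arrays and no control array and was at least 1.75-fold higher (adjusted p = 0.00263). Its 2 other probes had positive effects. ASNS, asparagine synthetase, had levels of 11.16, 11.27 and 11.17 on the IGF1 arrays, against 10.65, 10.74 and 10.68 on the control arrays, and rose by 0.51 ± 0.08 on the log2 scale (1.42-fold, adjusted p = 0.0029). PYCR1, which makes proline, rose by 0.66 ± 0.09 on the log2 scale (1.58-fold, adjusted p = 0.00186). PYCR3, GOT1 and BCAT1 rose by 0.37 to 0.55, PYCR3 with detection on 2 of 3 control arrays. The call of BCAT1 was lost in 13 of 23 alternative fits, that of MTHFD2 in 10 of 23 and that of PYCR3 in 8 of 22. In the fit without the 3 arrays that stood apart, 2 serine, glycine and one-carbon enzymes and 5 other synthesis enzymes rose.

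Amino acid transporters were mixed. Of 18 tested, 7 rose, SLC7A2 and 6 others by 0.37 to 0.98, 1 fell and the median was 0.22. SLC6A9, a glycine transporter, had levels of 6.64, 6.58 and 6.48 on the IGF1 arrays, against 5.93, 5.35 and 5.49 on the control arrays, and rose by 0.98 ± 0.14 on the log2 scale (1.97-fold, adjusted p = 0.00186). SLC7A2, a carrier of cationic amino acids, was detected on IGF1 arrays only and was at least 1.37-fold higher (adjusted p = 0.00186). SLC1A5, the glutamine carrier ASCT2, rose by 0.58 ± 0.10. SLC3A2 and SLC7A5, which form the leucine carrier LAT1, rose by 0.53 and 0.37, and SLC1A4, detected on 1 of 3 control arrays, and SLC7A1 by 0.69 and 0.50. SLC1A1, a glutamate carrier, fell by 0.53. Cytosolic aminoacyl-tRNA synthetases, which load tRNAs, had 5 of 17 members up and 0 down (median 0.27). GARS1, for glycine, had levels of 12.06, 12.12 and 12.16 on the IGF1 arrays, against 11.28, 11.63 and 11.55 on the control arrays, and rose by 0.63 ± 0.10 on the log2 scale (1.54-fold, adjusted p = 0.00393). AARS1, for alanine, rose by 0.52 ± 0.09 on the log2 scale (1.44-fold, adjusted p = 0.00433). MARS1, NARS1 and YARS1 rose by 0.42 to 0.51. In the fit without the 3 arrays that stood apart, 2 cytosolic synthetase genes rose, and 5 transporters rose and 0 fell. Of the 15 mitochondrial synthetases, 1 rose, MARS2 (6.67% called, against 9.06% of all genes), and the median was 0.01.

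ASNS and AARS1 promoters are shown for the C/EBP-ATF response element that ATF4 binds with a C/EBP partner, from the same RefSeq table, at chr7:97872359-97872658, minus strand for ASNS, and chr16:70289457-70289756, minus strand for AARS1. Capitals mark TGATGNAAN, on the printed strand in ASNS and on the other strand in AARS1.
ASNS: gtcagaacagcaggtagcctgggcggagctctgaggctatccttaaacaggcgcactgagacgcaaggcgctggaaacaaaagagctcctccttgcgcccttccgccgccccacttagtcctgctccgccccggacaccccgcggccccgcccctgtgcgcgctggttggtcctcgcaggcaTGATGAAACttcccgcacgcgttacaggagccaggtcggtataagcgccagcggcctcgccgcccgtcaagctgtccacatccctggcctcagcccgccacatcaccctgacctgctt
AARS1: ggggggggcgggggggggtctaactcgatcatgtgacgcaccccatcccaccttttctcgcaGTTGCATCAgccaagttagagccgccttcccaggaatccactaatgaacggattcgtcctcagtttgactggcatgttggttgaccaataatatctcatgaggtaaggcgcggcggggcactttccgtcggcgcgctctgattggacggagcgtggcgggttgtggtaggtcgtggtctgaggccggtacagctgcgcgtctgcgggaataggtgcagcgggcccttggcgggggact
These letters stood in 12 of 51 promoters over the 4 lists of amino acid synthesis, one-carbon, transport and charging genes, among them 8 of the 17 called members, and in 1.66% of tested genes. Among all called genes they stood in 3.72% of the promoters of those that rose and in 1.13% of those that fell.

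Other biosynthetic groups moved up in part. Of 24 nucleotide synthesis genes, 4 rose, 0 fell, 23 were above zero and the median was 0.23. CTPS1, which makes CTP from UTP, had levels of 10.14, 10.11 and 9.99 on the IGF1 arrays, against 9.07, 9.07 and 9.27 on the control arrays, and rose by 0.94 ± 0.09 on the log2 scale (1.92-fold, adjusted p = 0.000258). PRPS1, which makes the ribose donor of nucleotides, rose by 0.59 ± 0.10 on the log2 scale (1.51-fold, adjusted p = 0.00404). PPAT and UCK2 rose by 0.47 and 0.46. Cholesterol genes counted 3 up and 1 down among 17 (median 0.24). DHCR7, the last enzyme of cholesterol synthesis, had levels of 8.06, 7.91 and 7.82 on the IGF1 arrays, against 6.86, 6.95 and 7.17 on the control arrays, and rose by 0.94 ± 0.12 on the log2 scale (1.91-fold, adjusted p = 0.00112). INSIG1, a sterol sensor that is itself a SREBP target, rose by 0.69 ± 0.10 on the log2 scale (1.62-fold, adjusted p = 0.00252). SQLE, an oxygen-using enzyme of the pathway, rose by 0.55 ± 0.14, while TM7SF2, a sterol reductase, fell by 0.58. ABCA1, which exports cholesterol, rose by 0.70 ± 0.12. Fatty acid synthesis had 4 of 18 up and 0 down (median 0.12). SCD, which desaturates fatty acids, had levels of 11.91, 11.84 and 11.98 on the IGF1 arrays, against 11.22, 11.24 and 11.29 on the control arrays, and rose by 0.66 ± 0.09 on the log2 scale (1.58-fold, adjusted p = 0.00112). ACACA, FASN and GPAM rose by 0.31 to 0.60. The calls of FASN and GPAM were each lost in 15 of 23 alternative fits, and the other GPAM probe stood at 0.21 ± 0.25. Of 12 genes of the pentose phosphate pathway and NADPH supply, 3 rose, IDH1, RPIA and TXNRD1, by 0.47 to 0.50. Without the 3 arrays that stood apart, 2 genes each of the nucleotide, cholesterol and fatty acid groups rose. In that fit 1 gene of the pentose phosphate group rose, 0 cholesterol genes fell and the call of ABCA1 was lost.

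Some ribosome production genes rose, while genes of the ribosome's own cytosolic proteins were called at about the share of all genes. Of 41 ribosome biogenesis genes, 9 rose by 0.33 to 0.77 and 0 fell (22% called, against 9.06% of all genes), with 36 above zero and a median of 0.22. NOP56, a core protein of box C/D snoRNPs, had levels of 10.47, 10.67 and 10.56 on the IGF1 arrays, against 10.08, 9.87 and 10.03 on the control arrays, and rose by 0.57 ± 0.09 on the log2 scale (1.49-fold, adjusted p = 0.00321). NOP16, RRS1 and LYAR, all nucleolar, rose by 0.54 to 0.61. POLR3K, a subunit of RNA polymerase III, rose by 0.69 ± 0.14, as 1 of 3 rises among 24 polymerase I and III genes (12.5% called). Of 53 cytosolic ribosomal protein genes, 0 rose and 4 fell (7.55% called, against 9.06% of all genes), with a median of -0.05. RPL28 fell by 0.88 ± 0.11 on the log2 scale (to 0.544 of the control level, adjusted p = 0.000823) and RPL37 fell by 0.89 ± 0.14 on the log2 scale (to 0.541 of the control level, adjusted p = 0.00263). Ribosomal protein genes have many processed copies, so probes for them may share sequence. Mitochondrial ribosomal protein genes had 0 calls in 71 with a median of 0.11, and respiratory chain genes 1 in 64, NDUFA6, with a median of -0.01. Proteasome genes had 4 of 34 up (11.8% called), led by the activator subunit PSME3 at 0.55 ± 0.11, with a median of 0.11. With the 3 arrays that stood apart left out, 5 ribosome biogenesis genes, 1 polymerase gene and 1 proteasome gene rose, and 2 cytosolic ribosomal protein genes fell.

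**Figure D2:**
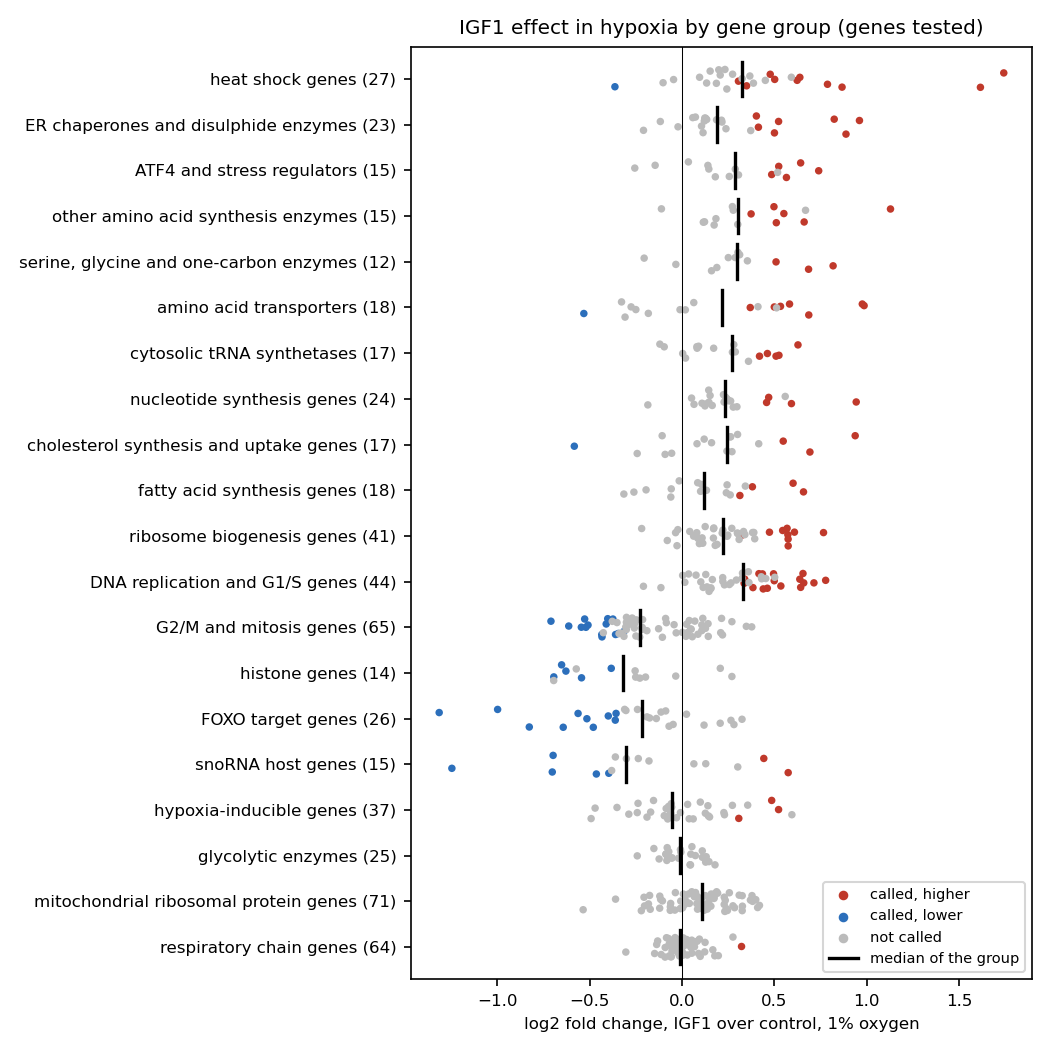
Each point is 1 tested gene of the group named on the left, placed by its log2 fold change of IGF1 over control at 1% oxygen, and each black bar is the median of its group. Medians lie between 0.19 and 0.33 for heat shock, ER chaperone, amino acid and DNA replication groups, at -0.23 to -0.32 for G2/M, histone and snoRNA host genes and near 0 for hypoxia-inducible, glycolytic and respiratory chain genes.

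The called genes of DNA replication rose and those of mitosis fell. The arrays measure pooled cells, in which fewer cells in a cycle phase and less RNA per cell cannot be told apart. Of 44 genes of DNA replication and the G1/S transition, 16 rose by 0.34 to 0.78 and 0 fell, with 42 above zero and a median of 0.33. PCNA, the sliding clamp of DNA polymerases, had levels of 8.22, 8.22 and 8.31 on the IGF1 arrays, against 7.66, 7.37 and 7.40 on the control arrays. It rose by 0.78 ± 0.13 on the log2 scale (1.71-fold, adjusted p = 0.00475), with no overlap between groups. CDC25A, the phosphatase that opens the way into S phase, rose by 0.71 ± 0.11 on the log2 scale (1.64-fold, adjusted p = 0.00296). MCM4, a subunit of the replicative helicase, had levels of 11.19, 11.10 and 11.16 on the IGF1 arrays, against 10.41, 10.55 and 10.51 on the control arrays, and rose by 0.66 ± 0.09 on the log2 scale (1.58-fold, adjusted p = 0.00112), and MCM6, its partner, rose by 0.53 ± 0.10. MCM10, ORC6, E2F2, FEN1 and TIPIN rose by 0.50 to 0.65. DTL, outside the list and detected on 3 IGF1 arrays and 2 control arrays, directs the destruction of the licensing factor CDT1 in S phase. Its levels were 6.71, 6.99 and 6.84 on the IGF1 arrays, against 5.34, 5.87 and 6.19 on the control arrays, and it rose by 1.04 ± 0.17 on the log2 scale (2.06-fold, adjusted p = 0.00337). Among 16 G1 regulators, CCND3, cyclin D3, rose by 0.59 ± 0.09, SKP2, which targets p27 for destruction, rose by 0.49 ± 0.10, and CDKN1B, which encodes p27, fell by 0.48 ± 0.14. The other CDKN1B probe, detected on 1 of the 6 arrays, stood at 0.13 ± 0.22. The call of CDKN1B was lost in 17 of 23 alternative fits and that of SKP2 in 2. Without the 3 arrays that stood apart, 6 replication genes rose, and 1 G1 regulator rose and 0 fell.

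Of 65 genes of G2 phase and mitosis, 14 fell by 0.31 to 0.71 and 0 rose, with 43 below zero and a median of -0.23. HMMR, a spindle-associated protein, had levels of 9.26, 9.20 and 9.19 on the IGF1 arrays, against 9.74, 10.01 and 10.02 on the control arrays. It fell by 0.71 ± 0.10 on the log2 scale (to 0.611 of the control level, adjusted p = 0.00163), and the groups did not overlap. DLGAP5, a kinetochore microtubule protein, fell by 0.53 ± 0.08 on the log2 scale (to 0.694 of the control level, adjusted p = 0.00252). KIF20A, a kinesin of cytokinesis, had levels of 10.33, 10.10 and 10.27 on the IGF1 arrays, against 10.67, 10.83 and 10.77 on the control arrays, and fell by 0.52 ± 0.09 on the log2 scale (to 0.697 of the control level, adjusted p = 0.00498). CENPA, the centromeric histone, fell by 0.61 ± 0.14, and PLK1 and AURKA, mitotic kinases, fell by 0.43 and 0.35. Histone genes had 5 of 14 down and 0 up (median -0.32). H2BC5 fell by 0.69 ± 0.11 on the log2 scale (to 0.618 of the control level, adjusted p = 0.00336). H2AC18, H2BC12 and H2AC20 fell by 0.54 to 0.65. These genes have near-identical copies, so a probe may stand for several. Without the 3 arrays, 5 mitotic genes and 2 histone genes fell.

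The promoter of MCM6 is shown for the E2F letters common to G1/S genes and that of HMMR for the CHR element of late cell cycle genes. They lie at chr2:135876394-135876693, minus strand for MCM6, and chr5:163460382-163460681, plus strand for HMMR. Capitals mark TTTNGCGC in MCM6, where each of 2 runs holds overlapping matches on both strands, and TTTGAAA in HMMR.
MCM6: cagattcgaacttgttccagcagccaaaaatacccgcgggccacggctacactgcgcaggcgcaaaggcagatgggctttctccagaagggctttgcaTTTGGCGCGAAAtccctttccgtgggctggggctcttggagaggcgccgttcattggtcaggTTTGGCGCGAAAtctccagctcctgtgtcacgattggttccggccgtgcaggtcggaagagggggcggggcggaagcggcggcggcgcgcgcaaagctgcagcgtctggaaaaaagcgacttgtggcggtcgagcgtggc
HMMR: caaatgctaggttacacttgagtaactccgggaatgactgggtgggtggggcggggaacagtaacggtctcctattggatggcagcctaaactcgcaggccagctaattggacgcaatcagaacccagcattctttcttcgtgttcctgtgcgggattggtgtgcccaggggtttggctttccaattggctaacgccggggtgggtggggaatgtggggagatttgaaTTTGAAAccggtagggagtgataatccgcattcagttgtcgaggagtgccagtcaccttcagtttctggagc
TTTNGCGC stood in 13 of 37 promoters of the replication list, 7 of them among 13 called members, and in 3.33% of tested genes, with 6.88% among genes that rose and 2.26% among genes that fell. TTTGAAA stood in 19 of 55 promoters of the G2/M list, 4 of them among 11 called members, and in 3.37% of tested genes, with 3.44% among genes that rose and 6.5% among genes that fell.

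Part of the genes that FOXO factors are known to drive, many of which restrain growth, fell. Of 26 tested, 10 fell by 0.36 to 1.32 and 0 rose (38.5% called, against 9.06% of all genes), with a median of -0.22. The list was chosen with earlier results of these data known, so its counts may partly restate that choice. YPEL3, a small protein that restrains proliferation, had levels of 6.76, 6.25 and 6.33 on the IGF1 arrays, against 7.82, 7.73 and 7.75 on the control arrays. It fell by 1.32 ± 0.13 on the log2 scale (to 0.402 of the control level, adjusted p = 0.000258), with every IGF1 array below every control array. TXNIP, which binds thioredoxin and limits glucose uptake, had levels of 9.60, 9.88 and 9.80 on the IGF1 arrays, against 10.74, 10.82 and 10.72 on the control arrays, and fell by 1.00 ± 0.11 on the log2 scale (to 0.500 of the control level, adjusted p = 0.000351). FBXO32, the muscle atrophy ubiquitin ligase atrogin-1, had levels of 8.71, 8.66 and 8.72 on the IGF1 arrays, against 9.51, 9.53 and 9.52 on the control arrays, and fell by 0.83 ± 0.10 on the log2 scale (to 0.564 of the control level, adjusted p = 0.000708). The control arrays agreed closely with each other for FBXO32. FOXO4, a FOXO factor itself, fell by 0.64 ± 0.11 on the log2 scale (to 0.640 of the control level, adjusted p = 0.00488). YPEL5 and ATG14, an autophagy factor, fell by 0.52 and 0.56. CDKN1B, BTG1, which is antiproliferative, KLF6 and BCL6, transcription factors, fell by 0.36 to 0.48. The call of CDKN1B was lost in 17 of 23 alternative fits, that of BCL6 in 14, that of BTG1 in 8 and that of KLF6 in 5. Without the 3 arrays that stood apart, 6 FOXO targets fell.

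YPEL3 and TXNIP promoters are shown for the forkhead letters that FOXO factors bind, at chr16:30096164-30096463, minus strand for YPEL3, and chr1:145996530-145996829, minus strand for TXNIP, with GTAAACA in capitals. In YPEL3 the match begins at the annotated start.
YPEL3: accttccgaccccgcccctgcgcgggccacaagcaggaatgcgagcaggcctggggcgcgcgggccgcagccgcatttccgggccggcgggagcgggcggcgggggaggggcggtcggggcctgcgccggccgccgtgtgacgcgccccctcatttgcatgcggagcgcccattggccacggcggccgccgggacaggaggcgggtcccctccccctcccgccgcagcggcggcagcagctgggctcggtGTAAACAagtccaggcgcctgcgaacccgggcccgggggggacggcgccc
TXNIP: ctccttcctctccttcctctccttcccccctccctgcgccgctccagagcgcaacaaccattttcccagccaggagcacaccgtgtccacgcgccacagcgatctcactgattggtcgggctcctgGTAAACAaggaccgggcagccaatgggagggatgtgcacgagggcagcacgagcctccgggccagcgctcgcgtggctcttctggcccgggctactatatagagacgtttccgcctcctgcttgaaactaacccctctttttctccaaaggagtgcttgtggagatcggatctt
Either strand of GTAAACA stood in 4 of 22 FOXO list promoters, all 4 among the 9 called members with a sequence (YPEL3, TXNIP, FOXO4 and BTG1), and in 2.29% of tested genes. It stood in 5.37% of promoters of genes that fell and in 1.43% of those of genes that rose. Further letters were searched and are not drawn. CACGTG, the E-box bound by MYC, stood in 13.5% of genes that rose, 9.04% that fell and 10.7% tested. NACGTG, the HIF site, includes every CACGTG and stood in 32.1%, 22.6% and 27.9%. TCACNCCAC, a sterol response element bound by SREBP, stood in 2.01%, 0.565% and 0.986%, and in 0 of 3 called cholesterol synthesis and uptake genes with a promoter.

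**Figure D3:**
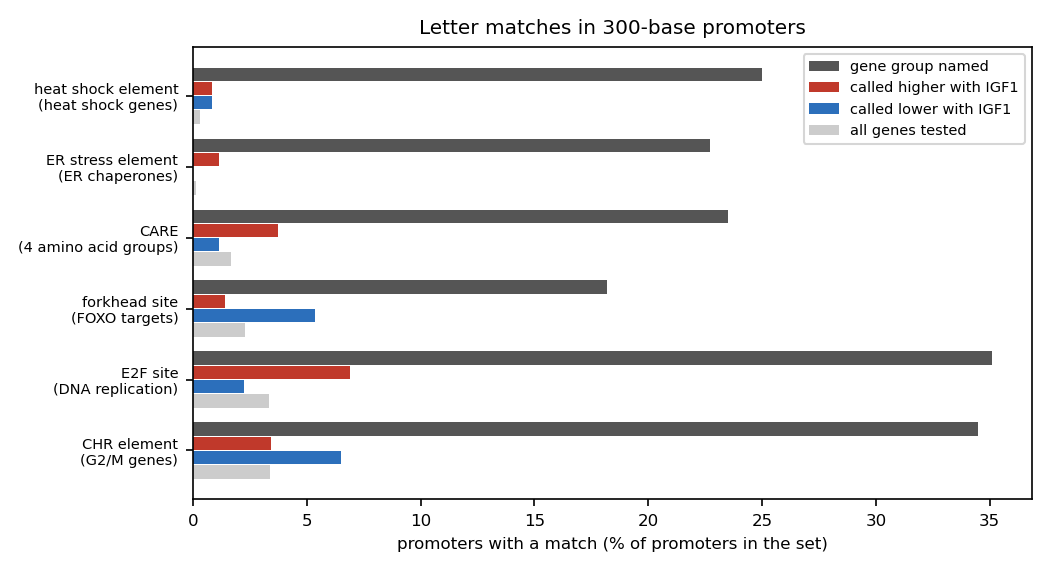
Bars give the percentage of 300-base RefSeq promoters that hold each set of letters on either strand, for the gene group named beside the motif, for genes called higher, for genes called lower and for all tested genes. Forkhead letters stand in 5.37% of promoters of genes called lower and 1.43% of those called higher, and E2F letters in 2.26% and 6.88% of the same sets.

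Called genes of the MYC network and of the IGF axis went both ways in the main fit. Of 12 MYC network genes, 3 fell, TXNIP among them, and 1 rose (33.3% called, against 9.06% of all genes). In that network 3 fell and 0 rose without the 3 arrays that stood apart. MXD3 and MXD4 compete with MYC for its partner MAX. MXD3 had levels of 6.36, 6.13 and 6.41 on the IGF1 arrays, against 7.11, 7.09 and 7.23 on the control arrays, and fell by 0.84 ± 0.10 on the log2 scale (to 0.558 of the control level, adjusted p = 0.000707). MXD4 fell by 0.73 ± 0.13 on the log2 scale (to 0.604 of the control level, adjusted p = 0.00529). MXD1, of the same family, rose by 0.40 ± 0.10, a call lost in 6 of 23 alternative fits, and MYC itself was at -0.22 ± 0.15. Of 24 genes of the IGF axis, 3 fell, 1 rose and the median was -0.09. GRB10, an adaptor that restrains IGF1R and the insulin receptor, had levels of 9.21, 9.19 and 8.96 on the IGF1 arrays, against 9.63, 9.56 and 9.76 on the control arrays, and fell by 0.53 ± 0.11 on the log2 scale (to 0.692 of the control level, adjusted p = 0.0121), but 1 of its 2 other probes stood at 0.03 ± 0.16. In the axis, 1 gene fell and 0 rose without the 3 arrays that stood apart. IGFBP6, which sequesters IGF2, and IGF2BP3, an RNA-binding protein, fell by 0.33 and 0.36. MTOR, the kinase of mTORC1 and mTORC2, rose by 0.39 ± 0.09. IGF1R had levels of 6.27, 6.27 and 5.98 on the IGF1 arrays, against 6.04, 6.35 and 6.16 on the control arrays, overlapping between groups, and an effect of -0.01 ± 0.13. IRS1 stood at -0.12 ± 0.12 and IRS2 at -0.14 ± 0.11. IGF1 was not detected on any of the 12 WM35 arrays and INSR on 1.

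Single genes of receptors and of autophagy fell. ERBB3, a partner of ERBB2, had levels of 8.68, 8.76 and 8.49 on the IGF1 arrays, against 9.13, 9.14 and 9.23 on the control arrays, and fell by 0.52 ± 0.10 on the log2 scale (to 0.696 of the control level, adjusted p = 0.00695). Its 2 other probes had effects of 0.16 ± 0.12 and 0.15 ± 0.12, and with all its probes averaged the effect was -0.07 (adjusted p = 0.696). With EPHA4 and DDR1, at 0.54 and 0.50 lower, ERBB3 made up the 3 falls among 17 receptor tyrosine kinases, of which 14 were below zero and 1 fell without the 3 arrays that stood apart. SPRY2, a feedback inhibitor of receptor kinases, fell by 0.42 ± 0.11. ULK1, the kinase that starts autophagy, had levels of 9.70, 9.62 and 9.54 on the IGF1 arrays, against 10.13, 10.16 and 10.31 on the control arrays, and fell by 0.58 ± 0.09 on the log2 scale (to 0.668 of the control level, adjusted p = 0.00263). FNIP1, a partner of folliculin at the lysosome, fell by 0.63 ± 0.13. Of 41 lysosome and autophagy genes, 3 fell and 0 rose (7.32% called, against 9.06% of all genes), with a median of -0.09. Of 19 Kruppel-like and clock genes, KLF13, KLF2, KLF6 and KLF9 fell by 0.32 to 0.61 and BMAL1, the core clock activator, rose by 0.63 ± 0.13. None of these 5 calls stood without the 3 arrays that stood apart.

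The largest fall was that of SLCO4A1-AS1, a non-coding transcript antisense to a solute carrier gene. Its levels were 6.37, 6.17 and 6.54 on the IGF1 arrays, against 7.97, 7.81 and 7.85 on the control arrays, and it fell by 1.52 ± 0.12 on the log2 scale (to 0.349 of the control level, adjusted p = 3.87e-05). SNHG7, a host gene of snoRNAs, had levels of 9.98, 9.76 and 9.88 on the IGF1 arrays, against 11.25, 11.23 and 10.87 on the control arrays. It fell by 1.25 ± 0.12 on the log2 scale (to 0.421 of the control level, adjusted p = 0.000258), and of its 2 other probes 1 stood at -1.28 and 1 at -0.31. Of 15 snoRNA host genes, 5 fell by 0.40 to 1.25 and 2 rose, SNHG9 and NOP56, with a median of -0.30. Of the 15 host genes, 2 fell and 1 rose without the 3 arrays that stood apart. EPB41L4A-AS1 fell by 0.70 ± 0.10 on the log2 scale (to 0.614 of the control level, adjusted p = 0.00165). SAT1, which acetylates polyamines for export, had levels of 10.01, 9.90 and 10.15 on the IGF1 arrays, against 11.12, 10.94 and 11.11 on the control arrays, and fell by 1.03 ± 0.11 on the log2 scale (to 0.489 of the control level, adjusted p = 0.000351). SRM, which makes spermidine, rose by 0.47 ± 0.11. PPP1R10, a nuclear targeting subunit of protein phosphatase 1, had levels of 6.58, 6.55 and 6.53 on the IGF1 arrays, against 7.50, 7.83 and 7.72 on the control arrays, and fell by 1.13 ± 0.11 on the log2 scale (to 0.457 of the control level, adjusted p = 0.00029). TGFB1I1, a focal adhesion protein, and KLHL3, a CUL3 adaptor, fell by 1.01 and 1.11. CEMIP, which degrades hyaluronan, fell by 1.08 ± 0.17, with detection on 2 of 3 IGF1 arrays. The zinc finger genes ZNF446 and ZNF581 fell by 1.03 and 0.99. MST1, which has near-identical copies and was also detected on 2 of 3 IGF1 arrays, fell by 1.14 ± 0.16, and BFSP1, a lens filament protein, was detected on control arrays only and was at least 1.65-fold lower (adjusted p = 0.00112). Among rises outside the lists, HPDL, an enzyme of coenzyme Q head group synthesis, was at least 1.48-fold higher (adjusted p = 0.00239) and ABHD3, a phospholipid hydrolase, was at least 1.53-fold higher (adjusted p = 0.00774). SLC35D4 stood among them too.

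Lists of cell state genes held few calls each. Of 21 invasive and neural crest state genes, 1 rose and 3 fell (19% called, against 9.06% of all genes), with a median of -0.06. THBS1, a matricellular glycoprotein, had levels of 8.92, 9.29 and 9.67 on the IGF1 arrays, against 8.16, 8.44 and 8.37 on the control arrays, and rose by 0.97 ± 0.19 on the log2 scale (1.96-fold, adjusted p = 0.00888). CCN2, another matricellular protein and a target of YAP and TGF-beta, had levels of 8.08, 8.09 and 8.33 on the IGF1 arrays, against 9.02, 8.95 and 9.05 on the control arrays, and fell by 0.84 ± 0.12 on the log2 scale (to 0.560 of the control level, adjusted p = 0.00186). CCN1 and WNT5A fell by 0.40 and 0.43. Without the 3 arrays that stood apart the calls of THBS1, CCN1 and WNT5A were lost, and that of CCN2 stood. The call of CCN1 was lost in 17 of 23 alternative fits and that of WNT5A in 12. Of 15 NF-kB and chemokine genes, CCL2, a monocyte attractant, fell by 0.58 ± 0.15 and PTGS2, cyclooxygenase 2, fell by 0.39 ± 0.11 (13.3% called). In that list 12 were below zero and the median was -0.17, and neither call stood without the 3 arrays that stood apart. Of 14 melanocyte genes tested, ERBB3, by its brightest probe, and OCA2, a melanosomal transporter detected on 2 of 3 IGF1 arrays, fell (14.3% called). In that list 10 were below zero and the median was -0.15. Interferon genes had 1 rise, IFIT1, and 1 fall, IRF9, in 24 (8.33% called, against 9.06% of all genes). PMAIP1, a pro-apoptotic BH3 protein, rose by 0.45 ± 0.13 as the 1 call among 16 BCL2 family and caspase inhibitor genes (6.25%). Among 18 p53 targets TIGAR rose and XPC fell (11.1% called), with 13 above zero and a median of 0.18. The call of PMAIP1 was lost in 15 of 23 alternative fits, that of TIGAR in 12 and that of XPC in 7.

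Genes that low oxygen itself induces were little altered by IGF1. Between the control arrays at 1% and 21% oxygen, which share the 1% controls with the IGF1 comparison, the median difference of 37 hypoxia-inducible genes was 1.26. With IGF1 at 1% oxygen their median effect was -0.06, and 3 rose and 0 fell (8.11% called, against 9.06% of all genes), with 1 rise without the 3 arrays that stood apart. With IGF1 at 21% oxygen their median effect was 0.17, and 5 were called up and 0 down. ADM, adrenomedullin, had levels of 12.49, 12.48 and 12.63 on the IGF1 arrays, against 12.21, 12.23 and 12.25 on the control arrays, and rose by 0.31 ± 0.08 on the log2 scale (1.24-fold, adjusted p = 0.0399). HILPDA, a lipid droplet protein, rose by 0.52 ± 0.12, and STC2 is the third. The call of ADM was lost in 14 of 23 alternative fits, that of HILPDA in 5 and that of STC2 in 3. VEGFA had levels of 8.18, 8.07 and 8.24 on the IGF1 arrays, against 7.94, 7.86 and 8.01 on the control arrays, without overlap, but its effect of 0.23 ± 0.12 did not pass the test (adjusted p = 0.271). EPAS1, which encodes HIF-2 alpha, stood at 0.23 ± 0.12, and NDRG1 at -0.06 ± 0.11. HIF1A was detected on 2 IGF1 arrays and no control array and did not pass the test (adjusted p = 0.288). MITF stood at 0.05 ± 0.19. Of 25 glycolytic enzymes 0 were called, with a median of -0.01 and effects between -0.24 and 0.18.

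**Figure D4:**
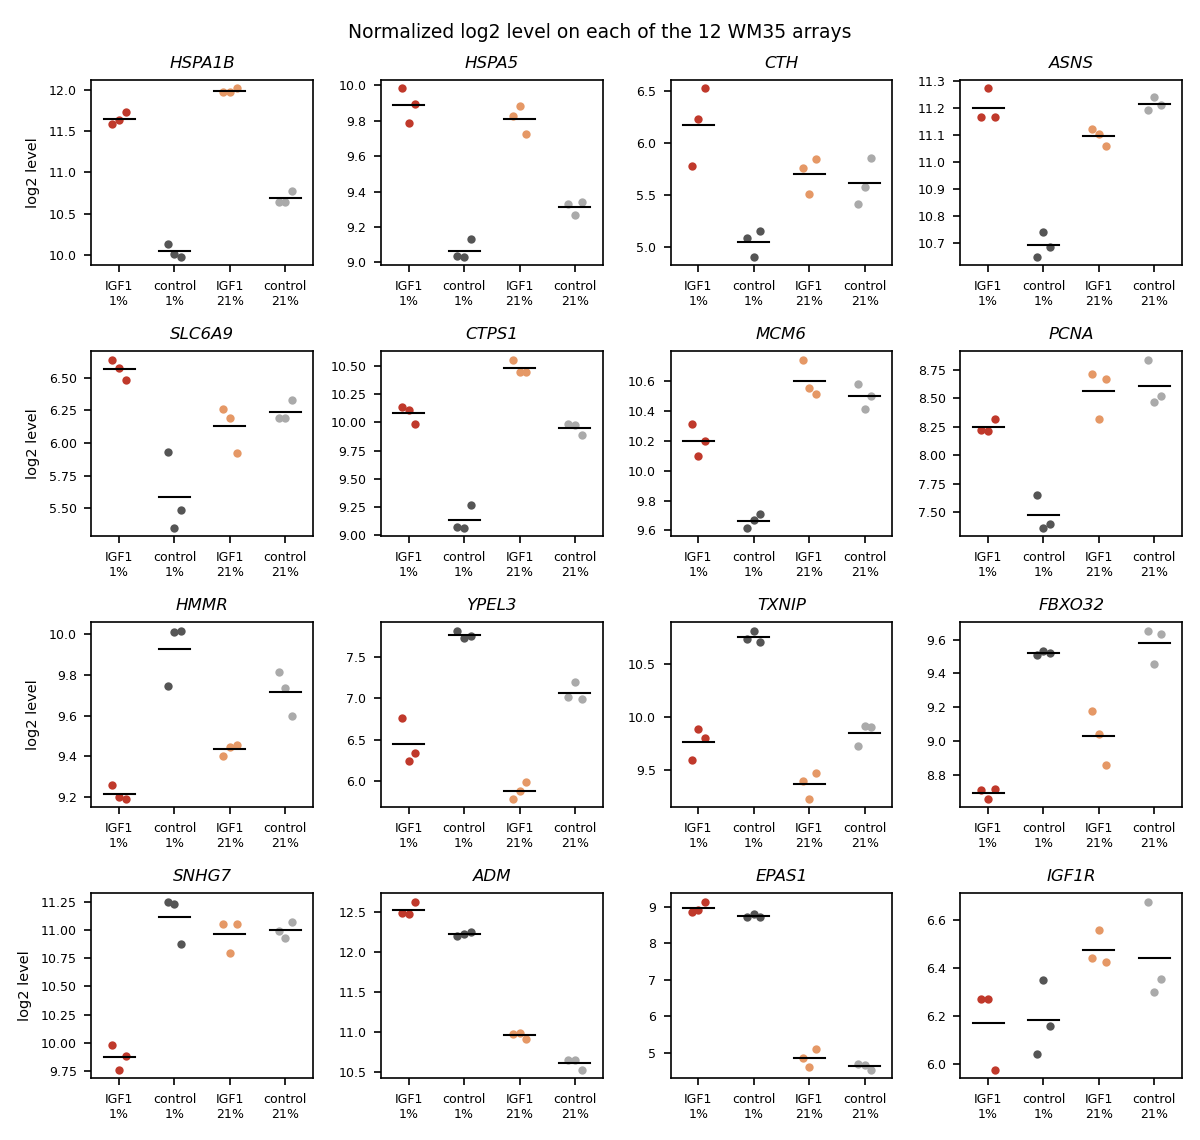
Each panel is 1 gene, with its normalized log2 level on the 12 arrays in the order IGF1 and control at 1% oxygen, then IGF1 and control at 21% oxygen, and a bar at each mean of 3 arrays. At 1% oxygen the IGF1 arrays lie above the control arrays for HSPA1B, HSPA5, CTH, ASNS, SLC6A9, CTPS1, MCM6, PCNA, ADM and EPAS1 and below them for HMMR, YPEL3, TXNIP, FBXO32 and SNHG7, and IGF1R overlaps.

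IGF1 had the same direction at 21% oxygen for most of the genes called at 1%. The levels on the 21% arrays do not enter the effect at 1%, but these arrays share its normalization and its estimate of spread. Of the 431 genes that rose, 381 (88.4%) had a positive effect at 21%, against 49.4% of all tested genes, 32 were called up and 0 down. Of the 436 that fell, 388 (89%) had a negative effect at 21%, against 50.6% of all genes, 50 were called down and 0 up. The median effect of the genes that rose was 0.51 at 1% and 0.23 at 21%, and that of the genes that fell was -0.50 at 1% and -0.26 at 21%. The genes were chosen for their effect at 1%, which by itself makes that value the larger. At 21% oxygen 151 genes were called (1.58%). YPEL3 stood at -1.18 ± 0.13 at 21%, SAT1 at -0.90 ± 0.11 and HSPA1B at 1.31 ± 0.09. List medians were alike at both oxygen levels for heat shock genes (0.32 at 1%, 0.33 at 21%), ribosome biogenesis (0.22 and 0.22) and FOXO targets (-0.22 and -0.26). They stood apart for DNA replication (0.33 and 0.08), cytosolic tRNA synthetases (0.27 and 0.00), snoRNA host genes (-0.30 and 0.11), histone genes (-0.32 and 0.05) and hypoxia-inducible genes (-0.06 and 0.17), a difference not tested for lists.

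The effect itself differed between oxygen levels for 5 genes (0.0523% of those tested), and 823 genes had an unadjusted p below 0.05 for that difference. SNHG7 had levels at 21% oxygen of 11.05, 10.79 and 11.05 on the IGF1 arrays, against 10.99, 10.93 and 11.07 on the control arrays, so that its effects of -1.25 ± 0.12 at 1% and -0.03 ± 0.12 at 21% differed by -1.21 ± 0.17 on the log2 scale (adjusted p = 0.026). REEP4, which clears ER from chromosomes in mitosis, had effects of -0.94 ± 0.12 at 1% and 0.27 ± 0.12 at 21%, a difference of -1.21 ± 0.17 on the log2 scale (adjusted p = 0.026). P2RY11, a receptor for ATP, had levels at 1% oxygen of 8.23, 8.06 and 8.04 on the IGF1 arrays, against 8.99, 8.99 and 9.05 on the control arrays, and effects of -0.90 ± 0.10 at 1% and 0.05 ± 0.10 at 21%, a difference of -0.95 ± 0.14 on the log2 scale (adjusted p = 0.029). The 2 other genes were called at 21% and not at 1%. SPRY1, a feedback inhibitor of receptor kinases, had levels at 1% oxygen of 8.60, 8.55 and 8.98 on the IGF1 arrays, against 8.97, 8.68 and 8.72 on the control arrays, and at 21% of 7.63, 7.49 and 7.63 on the IGF1 arrays, against 6.05, 6.26 and 6.40 on the control arrays. Its effects were -0.08 ± 0.13 at 1% and 1.35 ± 0.13 at 21%, a difference of -1.43 ± 0.19 on the log2 scale (adjusted p = 0.026). FST, follistatin, which binds activin, had effects of -0.01 ± 0.09 at 1% and -0.86 ± 0.09 at 21%, a difference of 0.85 ± 0.12 on the log2 scale (adjusted p = 0.026). Mean raw signal was 248 to 268 on the IGF1 arrays and 317 to 341 on the control arrays at 21% oxygen, and its part in this difference was not tested. Leaving out 1 normoxia array left 0 such genes whichever of the 6 it was, as did leaving out IGF1 array A or B at 1% oxygen.

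**Figure D5:**
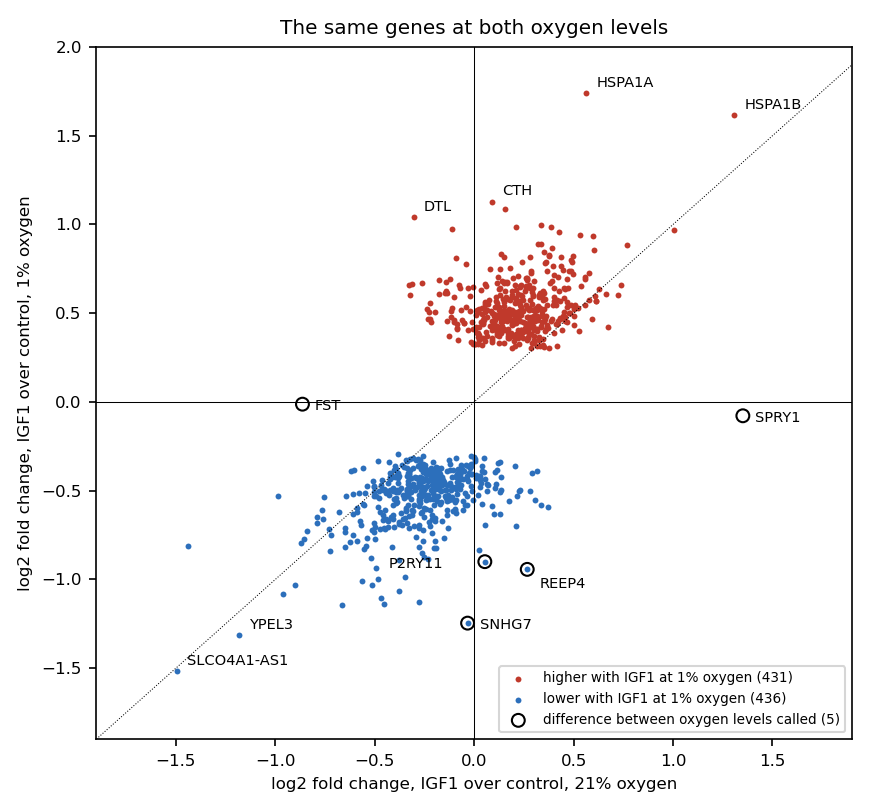
Each point is a gene, with its log2 fold change of IGF1 over control at 1% oxygen on the vertical axis and at 21% on the horizontal axis. Red and blue points are the 431 and 436 genes called at 1%, rings are the 5 genes with a called difference between oxygen levels and the dotted line marks equal effects. Most called genes have the same sign at both oxygen levels and lie nearer to 0 at 21%.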

How the data were processed

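Total RNA of WM35 cells was measured on Illumina expression arrays, with 300 ng of RNA amplified and biotin-labelled per the labels' protocols. The deposited table held an average signal per probe, an intensity on a linear scale, and a detection p-value per probe, both exported with GenomeStudio per the submitters' processing notes, which name no version. The authors' normalized intensity values for 38221 probes, whose normalization those sources do not state, served as an alternative only. From the deposited intensities, the 12 WM35 arrays were background-corrected, quantile normalized and taken to log2 with neqc (limma 3.58.1 in R 4.3.3, offset 16). Probes with a detection p-value below 0.01 on at least 3 of 12 arrays were kept. Of 47231 probes, 27003 had 1 gene symbol in the platform annotation, 4 had several and 20224 had none; 26969 symbols were updated by gene identifier. Each gene took its probe with the highest mean, giving 9569 genes.

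Groups came from the sample titles. One limma model with 4 group means (lmFit and eBayes, 8 residual degrees of freedom) gave the IGF1 effect at 1% oxygen and its difference from that at 21%, with Benjamini-Hochberg adjustment over all genes. The letters A, B and C were not used to pair arrays: deviations from the group means of same-letter IGF1 and control arrays at 1% oxygen correlated at -0.21, 0.13 and -0.27. The gene groups and members were chosen with earlier results of these data known. Genes named are fixed IGF, hypoxia and melanocyte genes, the 15 largest rises and 15 largest falls with groups that did not overlap, called members of the lists with up to 3 others per list, and genes called for the difference; 1 of the largest falls is not reported here. On simulated data of 9569 genes for the effect at 1% oxygen, the model called 50 of 100 genes set to change 1.5-fold. It called 91 of 100 set to change 2-fold, and 4.73% of its calls on the simulated data were false. The share of false calls among the genes called on the measured arrays was not tested. Promoters of 7813 tested and 703 called genes were matched by symbol, using the first of a gene's entries, and searched on both strands. Alternatives covered background correction, normalization, the detection filter, the choice of probe, a replicate block, the arrays fitted, arrays left out, the spread model and a fold threshold. Figures were drawn with matplotlib 3.10.9 in Python 3.11.15.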

Additional observations from a re-analysis of the deposited data

Results flagged for a closer look

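The effect of IGF1 differed between 1% and 21% oxygen, by limma's test of the difference, for 5 genes. As the effect at 1% minus that at 21%, the log2 values were -1.43 for SPRY1, -1.21 for SNHG7, -1.21 for REEP4, -0.95 for P2RY11 and 0.85 for FST. None of the 5 stood in every fit that left out 1 array.

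Probes without a gene symbol were outside the main measurement. Of 4637 such probes kept by the detection filter, 53 were called for the IGF1 effect at 1% oxygen (1.14%), 21 higher and 32 lower.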

How the results depend on the processing

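The 867 calls for IGF1 at 1% oxygen fell to 436 when the 6 arrays compared were fitted alone, to 333 without the 3 arrays that stood apart and to 257 under the 1.5-fold rule, and ranged from 361 to 862 when 1 array was left out. Other settings gave 657 to 1046, 765 of them under the replicate block. Under probe averaging 866 of the 867 kept their sign, DNAJB6 turning to 0.062, and in the other settings all those tested did. In fits that only left out arrays or refitted the same levels, a kept sign was fixed in advance for nearly all of them. The difference between oxygen levels had 0 to 8 calls when 1 array was left out, 8 with the deposited normalized values, 12 with a trended robust spread, 2 with the replicate block, 0 without the 2 control arrays that stood apart and 2 without the 3 arrays. Of 153 called genes named with a value, 73 passed in every alternative that tested them and 61 failed in some fit without 1 array. ATF4 passed in 5 alternatives, its adjusted p ranging from 0.018 to 0.541, and SOX10 in 1. Among uncalled genes, signs turned for some near 0 and for HIF1A. The main effect of HIF1A was 0.59, with detection on no control array at 1% oxygen. With the deposited values FST was at 0.017 and MITF at -0.13, and with averaged probes HIF1A was at -0.059. Without control array A and normoxia control C, FST was at 0.017, MITF at -0.010 and SPRY1 at 0.011. Without those and IGF1 array C, FST was at 0.053, IGF1R at 0.016 and MITF at -0.075. When 1 array was left out, MITF ranged from -0.10 to 0.27, IGF1R from -0.081 to 0.087, FST from -0.044 to 0.023 and SPRY1 from -0.21 to 0.011. The cause of these shifts was not tested. Medians of the 48 lists moved by less than their spread between arrays in 987 of 1104 fits. Part of these could not move. Effects stay the same without a normoxia array, with the 6 arrays fitted alone, with the replicate block and with the other spread model. Probes close to background limit dim genes: called changes of genes not detected on any array of a group are given as bounds.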

Other observations

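Some groups not described above had a few calls each. The shares called were 10% for DNA repair, 10.5% for initiation factors and 8.33% for chaperonin and prefoldin subunits. These were near the 9.06% of all genes. Of 20 DNA repair genes, XRCC3, which acts in homologous recombination, rose by 0.65 ± 0.14 and FANCB, of the Fanconi anaemia core complex, rose by 0.53 ± 0.12, with 16 of 20 above zero and a median of 0.24. Of 38 translation initiation factors, EIF2S2, EIF2B3 and EIF5B rose by 0.49 to 0.53 and EIF4A2 fell by 0.40, with a median of 0.00. Of 12 chaperonin and prefoldin subunits, CCT3 rose by 0.44 ± 0.10.

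Detection itself changed for a few genes, which were chosen after their values were seen. On all 3 IGF1 arrays but no control array at 1% oxygen 25 genes were detected, and 14 of them were called. On all 3 control arrays but no IGF1 array 27 genes were detected, of which 14 were called. Both sets were picked on the arrays that the calls use, so a share of calls above the 9.06% of all genes is built in. A gene can also pass the detection filter through 1 group alone. Of 180 called genes with further detected probes, 162 had all of those probes on the same side of zero and 18 had some on the other side.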
